A study of Homo sapiens with 9 samples.

Results

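RAB proteins are the largest family of small GTPases that direct membrane traffic. The 62 genes described here are the protein-coding genes of GENCODE on GRCh37 whose symbol is RAB followed by a number and, for some, a letter. RAB-like genes and the genes of RAB partners were left out, and RAB7B, which the role lists name, was not analysed here. Of the 40703 merged regions of the 4 peak lists, 123 lay in the body of a RAB gene or within 10 kb of a RAB transcription start site (TSS). The same windows of all 20162 protein-coding genes held 30196 regions.

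The lists come from formaldehyde-assisted isolation of regulatory elements (FAIRE-seq), which enriches DNA with few nucleosomes, in Jurkat, a human T cell leukaemia line grown from the single clone E6-1. The labels assign the lists to non-stimulated (NS) cells cultured with DMSO and to cells resting after stimulus withdrawal (SW) that received DMSO. They assign the others to both kinds of cell pre-treated for 1 h with 15 µM rottlerin. By the study's methods this pre-treatment came before any stimulation. The study used rottlerin as an inhibitor of protein kinase C and washed it away together with the stimulus. By the labels, SW cells received 24 ng/mL of the phorbol ester PMA and 1 µM calcium ionophore for 4 h, were washed and were then cultured for 1 day, while NS cells received no stimulus. All cells were Jurkat cells in complete RPMI medium with serum, and each of the 9 samples is 1 library. By the labels, none of the lists belongs to the other 5 samples, namely the stimulated and re-stimulated cells of both pre-treatments and the total input.

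The merge of all peaks yielded 40731 regions, of which 28 lay off the autosomes, X and Y and were left out. The study's methods give the same number for a merge of its DMSO libraries alone, and a shorter stimulation than the labels. The lists labelled SW DMSO, NS rottlerin and SW rottlerin may therefore describe other cell states than their labels say. They are called by their labels throughout, and no direction is read from them about stimulation, withdrawal or rottlerin. The lists held 18977, 20132, 23835 and 30409 peaks in the order NS DMSO, SW DMSO, NS rottlerin and SW rottlerin. With 1 library in each group there is no spread between replicates, so no test was made and no p-value is given. Peak lists do not give the sequencing depth, and where a list has no peak it is only known that none was called there. In a library of many cells, opening in fewer cells and weaker opening in each cell cannot be told apart. Where a share carries a 95% Wilson interval, the interval covers counting error only.

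As a check of the labelled cell type, 8 of 9 T cell genes (CD3D, CD3E, CD3G, CD247, CD2, CD28, LCK, ZAP70 and LAT) had a region within 1 kb of a TSS in at least 1 list. Of the same 9 genes, 5 had a TSS peak in all 4 lists and 6 had one in NS DMSO. None of the 4 B cell genes, 3 monocyte genes and 2 liver genes had a TSS region. The windows of the B cell genes held 5 regions and those of the monocyte genes 2, of which 4 and 1 were in all 4 lists. Both neuronal genes, SYP and SNAP25, had a TSS region in all 4 lists.

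RAB proteins switch between a GDP-bound form held in the cytosol and a GTP-bound form on membranes, where they recruit motors, tethers and coat factors. Exchange factors load GTP, GTPase activating proteins end the signal, and prenyl groups anchor the protein in its membrane. In T cells, RAB proteins carry the antigen receptor and the kinase LCK through recycling endosomes to the synapse. RAB27A is required for the release of cytotoxic granules.

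The sequences below are first those of RAB regions missing from the NS DMSO list but present in the 3 others, the strongest at each gene by its highest enrichment. There were 9 such regions at 6 genes, and RAB7A is left out because its window held too short an unbroken stretch free of annotated exons. The upstream sequences of 3 RAB genes with a TSS peak in every list follow, chosen after their values were seen. They are shown so that regions found outside the NS DMSO list can be set beside promoters that were open throughout. All are on the plus strand of hg19 (GRCh37), are limited to the central 300 bp of the region and stop before any annotated exon. Capitals mark every match, on either strand, to TGANTCA (bound by AP1), CCGGAAG (bound by ETS factors) or TGGAAA (the core bound by NFAT). Across all 40703 merged regions, the central 300 bp held these in 17.9%, 5.94% and 27.9% of regions, and in no RAB region did matches to different motifs overlap. A match describes the letters and is not evidence of binding.
RAB5A, upstream of the gene, chr3:19979053-19979352: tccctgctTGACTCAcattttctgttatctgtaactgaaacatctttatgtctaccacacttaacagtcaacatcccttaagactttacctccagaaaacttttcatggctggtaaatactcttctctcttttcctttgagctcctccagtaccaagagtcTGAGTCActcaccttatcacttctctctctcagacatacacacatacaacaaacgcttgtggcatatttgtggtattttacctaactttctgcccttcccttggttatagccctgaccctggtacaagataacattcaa
RAB8B, intron, chr15:63524340-63524639: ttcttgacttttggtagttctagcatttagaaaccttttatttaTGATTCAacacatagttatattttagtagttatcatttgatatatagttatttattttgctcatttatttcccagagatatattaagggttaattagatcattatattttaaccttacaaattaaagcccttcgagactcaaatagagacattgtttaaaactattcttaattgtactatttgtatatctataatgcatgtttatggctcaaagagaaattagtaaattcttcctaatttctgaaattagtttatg
RAB27A, intron, chr15:55559849-55560148: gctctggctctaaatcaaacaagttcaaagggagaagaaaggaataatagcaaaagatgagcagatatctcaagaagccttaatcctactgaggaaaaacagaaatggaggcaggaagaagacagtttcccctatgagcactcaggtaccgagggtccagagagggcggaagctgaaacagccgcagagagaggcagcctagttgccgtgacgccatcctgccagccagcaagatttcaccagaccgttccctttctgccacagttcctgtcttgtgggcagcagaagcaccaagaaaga
RAB30, intron, chr11:82713106-82713405: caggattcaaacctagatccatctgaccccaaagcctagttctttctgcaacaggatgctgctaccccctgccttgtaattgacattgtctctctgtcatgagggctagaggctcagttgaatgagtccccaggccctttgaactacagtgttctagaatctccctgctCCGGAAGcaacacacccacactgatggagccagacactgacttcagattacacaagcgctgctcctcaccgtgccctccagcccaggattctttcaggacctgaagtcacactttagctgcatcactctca
RAB12, promoter, chr18:8609217-8609434: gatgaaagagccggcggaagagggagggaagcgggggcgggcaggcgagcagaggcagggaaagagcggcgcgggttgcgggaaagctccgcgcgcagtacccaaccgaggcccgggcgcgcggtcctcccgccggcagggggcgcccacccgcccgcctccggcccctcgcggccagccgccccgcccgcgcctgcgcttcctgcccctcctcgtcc
RAB5B, promoter, chr12:56367462-56367696: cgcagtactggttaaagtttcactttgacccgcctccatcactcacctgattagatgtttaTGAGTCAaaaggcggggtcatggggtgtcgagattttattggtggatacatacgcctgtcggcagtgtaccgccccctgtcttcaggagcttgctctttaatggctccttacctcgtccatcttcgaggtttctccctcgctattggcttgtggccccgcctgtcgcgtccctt
RAB8A, promoter, chr19:16222259-16222558: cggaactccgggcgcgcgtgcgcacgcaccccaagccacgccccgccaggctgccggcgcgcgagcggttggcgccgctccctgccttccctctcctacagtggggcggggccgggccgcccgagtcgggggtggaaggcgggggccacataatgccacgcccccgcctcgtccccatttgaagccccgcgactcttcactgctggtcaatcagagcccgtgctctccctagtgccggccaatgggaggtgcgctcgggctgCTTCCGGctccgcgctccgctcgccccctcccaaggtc
RAB11A, promoter, chr15:66161532-66161793: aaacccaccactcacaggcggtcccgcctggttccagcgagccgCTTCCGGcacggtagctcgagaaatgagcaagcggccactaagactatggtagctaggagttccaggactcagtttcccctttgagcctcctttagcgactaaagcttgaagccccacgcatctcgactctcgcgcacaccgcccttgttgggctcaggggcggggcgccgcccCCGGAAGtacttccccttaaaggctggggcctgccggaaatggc

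The RAB5A sequence held 2 AP1 matches, the RAB8B sequence 1 AP1 match and the RAB30 sequence 1 ETS match. The RAB27A intron and the RAB12 promoter held none of the 3 motifs. Of all 9 regions 5 held a match, the others being RAB7A and the RAB27A region at chr15:55513365-55513825, with NFAT matches. No share with a match to any of the 3 motifs was computed over all regions, so this count is not read as particular to these regions. The RAB12 promoter was also the most GC-rich of the 8, at 77.0% with 41 CpG dinucleotides over its central 300 bp, and the RAB8B intron was the least, at 24.7% with 1. Among the promoters open in every list, RAB5B held 1 AP1 match, RAB8A held 1 ETS match and RAB11A held 2 ETS matches.

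Most RAB genes had open chromatin at their start sites in these cells. A region lay within 1 kb of a TSS in at least 1 list for 41 of the 62 genes (66.1%, 95% interval 53.7–76.7), against 53.1% of all protein-coding genes. In 27 genes (43.5%, 31.9–55.9) the TSS had a peak in all 4 lists, against 35.5% of all genes. The NS DMSO list had a TSS peak at 34 genes (54.8%, 42.5–66.6), against 40.5%. The lists labelled SW DMSO, NS rottlerin and SW rottlerin had one at 31, 35 and 40 genes, for which no share at all genes was computed. Anywhere in the window, 53 genes (85.5%, 74.7–92.2) had a region, against 72.3% of all genes, with a median of 2.0 regions per RAB gene against 1.0. RAB genes were of similar length to all genes, with a median span of 30.0 kb against 27.2 kb. When TSSs were limited to the canonical transcript, 39 genes had a region there and 25 had it in all 4 lists. RAB37 and RAB27B had a region at an alternative start only.

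**Figure D1:**
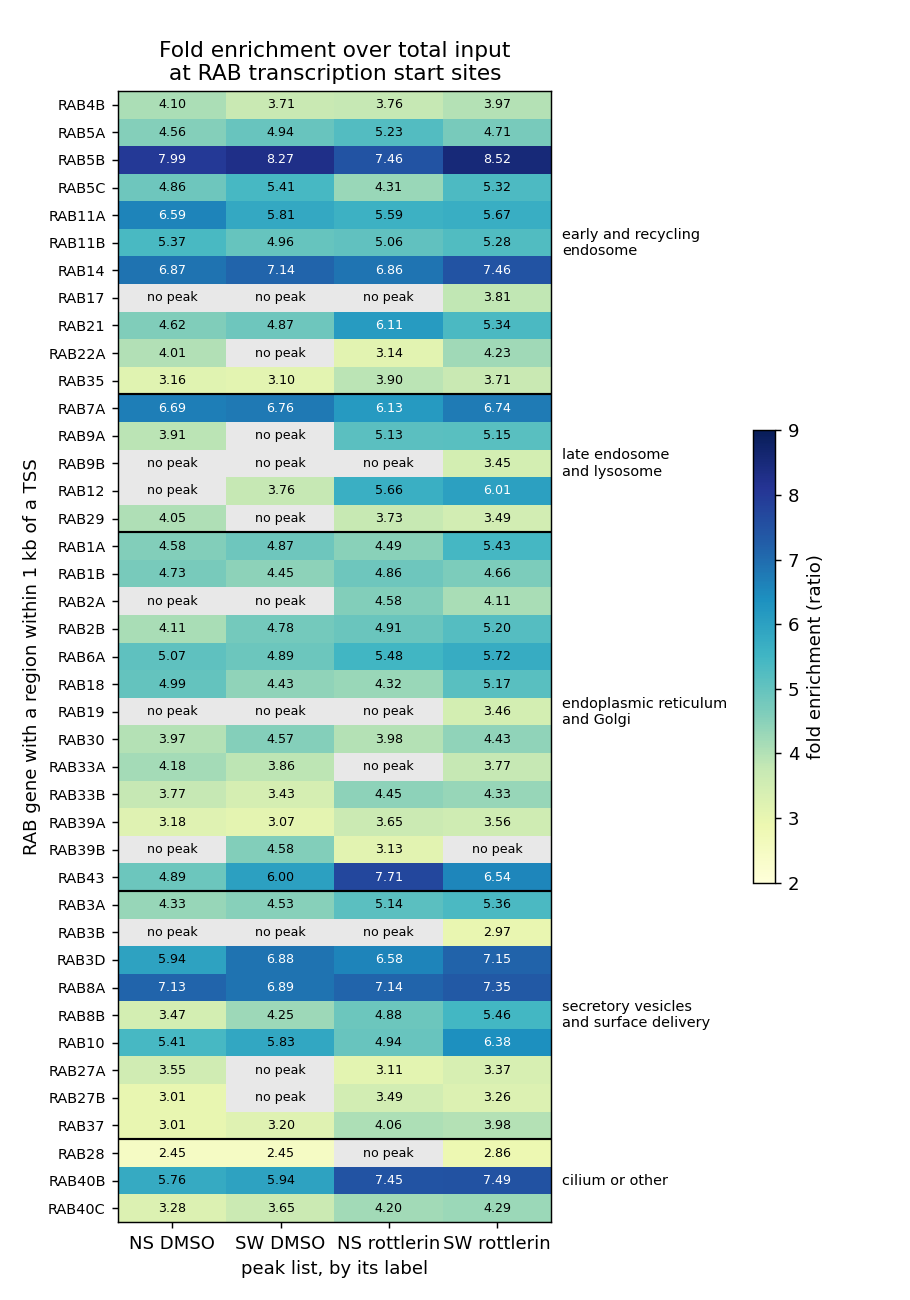
Fold enrichment over total input, a ratio, at the TSS of each of the 41 RAB genes with a region there, with the 4 lists as columns and the genes as rows grouped by role. Grey cells are lists without a peak, and 27 rows have a value in every list, from RAB5B at 7.46 to 8.52 down to RAB39A at 3.07 to 3.65.

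The values in the plot of TSS enrichment are the authors' fold enrichment of a peak over total input. Where several peaks of a list lay at the TSSs of a gene, the highest was taken. Across RAB regions this enrichment ran from 2.45 to 7.99 in the NS DMSO list, from 2.45 to 8.27 in SW DMSO, from 2.75 to 7.71 in NS rottlerin and from 2.48 to 8.52 in SW rottlerin. Its median was 4.08, 4.21, 4.23 and 4.21 in the same order at RAB genes, against 4.09, 4.06, 4.11 and 4.06 at all protein-coding genes.

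Genes of the early and recycling endosome were mostly open at their TSS. Of 16 such genes, 15 had a region, 11 had it at a TSS and 9 had a TSS peak in all 4 lists. Among all 62 RAB genes, 66.1% had a region at a TSS and 43.5% had a TSS peak in all 4 lists. Here and below, whether a role group departs from these shares was not tested, and no group was set against genes outside the family. RAB5 proteins drive the fusion of early endosomes, and all 3 RAB5 genes were open in every list. RAB5B had 7.99 in NS DMSO, 8.27 in SW DMSO, 7.46 in NS rottlerin and 8.52 in SW rottlerin, the highest value at a RAB gene in each list but NS rottlerin. In that list a RAB43 region, at 7.71, and a region in the window of RAB26, at 7.70, were higher. The region (chr12:56367283-56367940) also lay within 1 kb of a TSS of PMEL, and its sequence is among those above. RAB5A had 4.56, 4.94, 5.23 and 4.71 in the same order, and RAB5C had 4.86, 5.41, 4.31 and 5.32. The RAB5A region also lay within 1 kb of a TSS of EFHB. Every value of RAB5B thus lay above every value of RAB5A and RAB5C.

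RAB11 proteins act in slow recycling through the perinuclear recycling compartment, and RAB4 proteins in fast recycling to the surface. RAB11B had 5.37 in NS DMSO, 4.96 in SW DMSO, 5.06 in NS rottlerin and 5.28 in SW rottlerin. At the canonical TSS of RAB11A (chr15:66161417-66161947) the values were lower, at 3.46, 3.38, 3.16 and 3.65. The larger values drawn for RAB11A, from 5.59 to 6.59, belong to a region 77.1 kb upstream, at an alternative RAB11A start that shares its position with the promoter of DENND4A, itself an exchange factor for RAB proteins. RAB4B was open in every list, with 4.10, 3.71, 3.76 and 3.97, over a region of 1958 bp that is the widest of the 123 and also lies at a TSS of MIA. RAB4A had no TSS region, and its only region, 4.71 kb upstream, had a peak of 3.73 in the SW rottlerin list alone.

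RAB35, which acts in fast recycling and in delivery of the antigen receptor to the synapse, had 3.16 in NS DMSO, 3.10 in SW DMSO, 3.90 in NS rottlerin and 3.71 in SW rottlerin. RAB14, which links endosomes and the Golgi, had 6.87, 7.14, 6.86 and 7.46. RAB21, which carries integrins, had 4.62, 4.87, 6.11 and 5.34. RAB35 and RAB21 thus had higher values in both rottlerin-labelled lists than in either DMSO-labelled list, and RAB14 did not. RAB22A, which acts in recycling of cargo taken up without clathrin, lacked a TSS peak in SW DMSO and had 4.01, 3.14 and 4.23 in the others. RAB17, an epithelial member, had a TSS peak in SW rottlerin alone, at 3.81. RAB25, the epithelial relative of RAB11, and RAB20 and RAB31 had regions but none at a TSS, and RAB15 had none.

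Late endosome, lysosome and lysosome-related genes were open at the TSS in every list only for RAB7A. Of the 8 genes in this group, 6 had a region and 5 had it at a TSS. RAB7A directs the maturation of late endosomes and their fusion with lysosomes, and its canonical TSS (chr3:128444762-128445083) had 6.69 in NS DMSO, 6.76 in SW DMSO, 6.13 in NS rottlerin and 6.74 in SW rottlerin. RAB9A, which returns receptors from late endosomes to the Golgi, lacked a peak in SW DMSO and had 3.91, 5.13 and 5.15 in the others. RAB29, a regulator of the kinase LRRK2, likewise lacked a peak in SW DMSO and had 4.05, 3.73 and 3.42 at its canonical TSS. The SW rottlerin value of 3.49 drawn for RAB29 belongs to a region 1.09 kb into the gene, with a peak in that list alone. RAB9B had a peak of 3.45 in SW rottlerin alone. RAB32 and RAB38, which build melanosomes and related organelles, had no region, and both regions of RAB24 lay away from its TSSs.

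RAB12, which sorts recycling cargo to lysosomes, was the only RAB gene with no NS DMSO peak and a peak at its canonical TSS in all 3 other lists. That region (chr18:8609195-8609538) had 3.76 in SW DMSO, 5.66 in NS rottlerin and 6.01 in SW rottlerin, and the nearest NS DMSO peak lay 135 kb away. The last value is above the median of 4.58 for the highest enrichment of the 48 regions at RAB TSSs. Its sequence is given above.

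Genes of the endoplasmic reticulum and Golgi formed the largest group. Of 19 genes, 17 had a region, 13 had it at a TSS and 9 had a TSS peak in all 4 lists. RAB1 proteins carry vesicles from the endoplasmic reticulum to the Golgi. RAB1A had 4.58 in NS DMSO, 4.87 in SW DMSO, 4.49 in NS rottlerin and 5.43 in SW rottlerin. RAB1B had 4.73, 4.45, 4.86 and 4.66, and the ranges of the 2 genes overlap. RAB6A, which acts in traffic within and out of the Golgi, had 5.07, 4.89, 5.48 and 5.72. Its relatives RAB6C and RAB6D had no region and RAB6B none at a TSS. RAB6C and RAB6D are near-identical copies, in which reads can be split or lost in mapping.

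RAB43, a Golgi member, had 2 regions at its TSS, and the stronger, 1.15 kb into the gene, had 4.89 in NS DMSO, 6.0 in SW DMSO, 7.71 in NS rottlerin and 6.54 in SW rottlerin. The other had 4.54, 4.36, 3.93 and 4.70 in that order. RAB18, of lipid droplets, had 4.99, 4.43, 4.32 and 5.17. RAB2A, which joins the endoplasmic reticulum and Golgi, had a TSS peak in NS rottlerin (4.58) and SW rottlerin (4.11) and none in either DMSO-labelled list, whereas RAB2B was open in every list, at 4.11, 4.78, 4.91 and 5.20. RAB39B had a TSS peak in SW DMSO (4.58) and NS rottlerin (3.13) only, and RAB39A was open in every list. RAB33 proteins act at the Golgi and in autophagy. RAB33A lacked a peak in NS rottlerin and had 4.18, 3.86 and 3.77 in the others, and RAB33B was open in every list, at 3.77, 3.43, 4.45 and 4.33. RAB30 had 3.97, 4.57, 3.98 and 4.43 at its TSS, and RAB19 had a peak of 3.46 in SW rottlerin alone.

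Secretory and surface delivery genes carried more regions than any other role group. Of 13 genes, 12 had a region, 9 had it at a TSS and 6 had a TSS peak in all 4 lists. The group held 42 of the 123 regions, with 8 each at RAB27A and RAB8B, and region counts were not adjusted for gene length. RAB8 and RAB10 proteins deliver vesicles to the surface. RAB8A (chr19:16222080-16222737) had 7.13 in NS DMSO, 6.89 in SW DMSO, 7.14 in NS rottlerin and 7.35 in SW rottlerin. RAB8B at its TSS had 3.47, 4.25, 4.88 and 5.46, so that every RAB8A value lay above every RAB8B value. RAB10 had 5.41, 5.83, 4.94 and 6.38. RAB3A, of regulated secretion, had 4.33, 4.53, 5.14 and 5.36. RAB3D at its canonical TSS had a peak in SW rottlerin alone, at 4.04. The higher RAB3D values in the plot, from 5.94 to 7.15, belong to a region at an alternative start 6.82 kb upstream that it shares with the TSSs of TMEM205 and CCDC159. RAB3B had a TSS peak of 2.97 in SW rottlerin alone, and RAB3C had no region.

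RAB27 proteins dock secretory granules at the plasma membrane. RAB27A at its canonical TSS (chr15:55581982-55582921) had 3.55 in NS DMSO, 3.11 in NS rottlerin and 3.37 in SW rottlerin and no peak in SW DMSO. RAB27B showed the same pattern, at 3.01, 3.49 and 3.26, at an upstream alternative start only. RAB37, a secretory RAB described in mast cells, was open in every list near an alternative start, at 3.01, 3.20, 4.06 and 3.98. The 6 cilium or other genes include the RAB40 proteins, which join ubiquitin ligases. RAB40B had 5.76 in NS DMSO, 5.94 in SW DMSO, 7.45 in NS rottlerin and 7.49 in SW rottlerin, and RAB40C had 3.28, 3.65, 4.20 and 4.29. RAB28, of photoreceptor cilia, lacked a peak in NS rottlerin and had 2.45, 2.45 and 2.86 in the others. RAB40A, RAB42 and RAB23, a ciliary member that restrains hedgehog signalling, had no region.

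In all, 9 RAB genes had no region, namely RAB42, RAB6C, RAB6D, RAB3C, RAB23, RAB32, RAB38, RAB15 and RAB40A. A further 12 had regions but none at a TSS. For 6 of them, RAB13, RAB25, RAB26, RAB34, RAB36 and RAB41, all 12 regions lay at a TSS of another coding gene. In 14 genes the TSS had a peak in 1 to 3 lists. Of these 14, 7 had an NS DMSO peak, 4 had an SW DMSO peak, 8 had an NS rottlerin peak and 13 had an SW rottlerin peak, the last list being the longest. RAB39B was the gene without an SW rottlerin peak. No matching shares at all genes were computed, so these counts are not read as particular to RAB genes. Set side by side, some paralogues differed, with RAB4B, RAB2B, RAB6A and RAB39A open in every list while RAB4A, RAB2A, RAB6B and RAB39B were not. The TSS regions of RAB4B, RAB2B and RAB39A also lay within 1 kb of a TSS of MIA, TOX4 and SLC35F2, in that order. Other paralogues were alike, and every member of RAB1, RAB5, RAB8 and RAB11 had a TSS peak in all lists.

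The 123 RAB regions were 161 to 1958 bp wide, with a median of 336 bp. By their mid-points 60 lay in an intron, 17 in an exon and 46 outside the gene, and 28 lay at a TSS of another protein-coding gene. Of the 123, 50 had a peak in all 4 lists (40.7%, 32.4–49.5), against 30.5% of regions at all protein-coding genes. A further 49 had no NS DMSO peak (39.8%, 31.6–48.7), against 50.5%. The NS DMSO list alone held 6 (4.88%, 2.25–10.2), against 7.21%, and all 3 other lists without NS DMSO held 9 (7.32%, 3.90–13.3), against 6.87%. For all 4 lists and for no NS DMSO peak, the share at all genes fell outside the RAB counting interval. For the other two it fell inside.

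**Figure D2:**
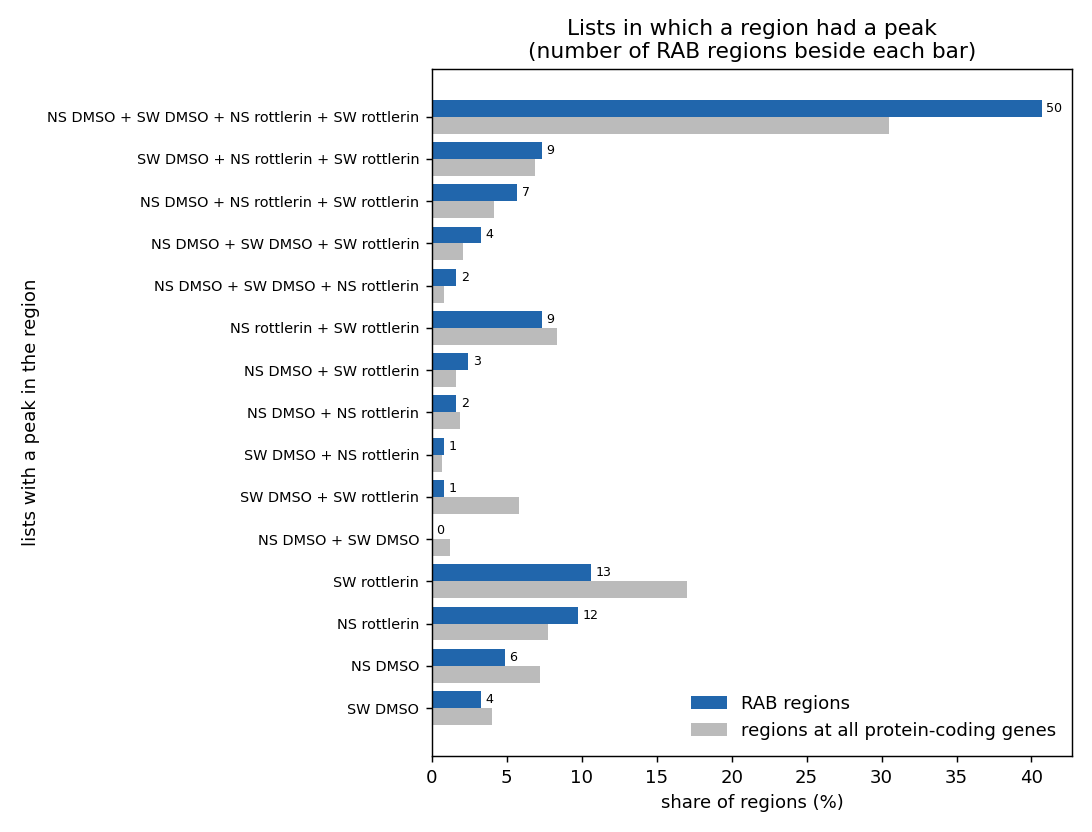
Share of regions, in percent, for each set of lists with a peak, for the 123 RAB regions and for the 30196 regions at all protein-coding genes, with the number of RAB regions beside each bar. All 4 lists together account for 50 RAB regions, the SW rottlerin list alone for 13 and the NS rottlerin list alone for 12.

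RAB regions also lay nearer to start sites. Of the RAB regions, 67 (54.5%, 45.7–63.0) lay within 1 kb of a coding TSS, against 38.2% at all genes. Among these 67, 16 had no NS DMSO peak (23.9%, 15.3–35.3), against 33.3%, and 40 had a peak in all 4 lists (59.7%, 47.7–70.6), against 54.5%. Among the 56 away from coding TSSs, 33 had no NS DMSO peak (58.9%, 45.9–70.8), against 61.1%, and 10 had a peak in all 4 lists (17.9%, 10.0–29.8), against 15.7%. Within either position class the RAB share lay within its counting interval of the share at all genes. List length also moved these shares. With the 18977 highest-scoring peaks of each list, 32 of 106 RAB regions (30.2%, 22.3–39.5) had no NS DMSO peak, against 38.8%, a share inside the interval. The share with a peak in all 4 lists was then 43.4% (34.4–52.9), against 33.5%, a share outside the interval.

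**Figure D3:**
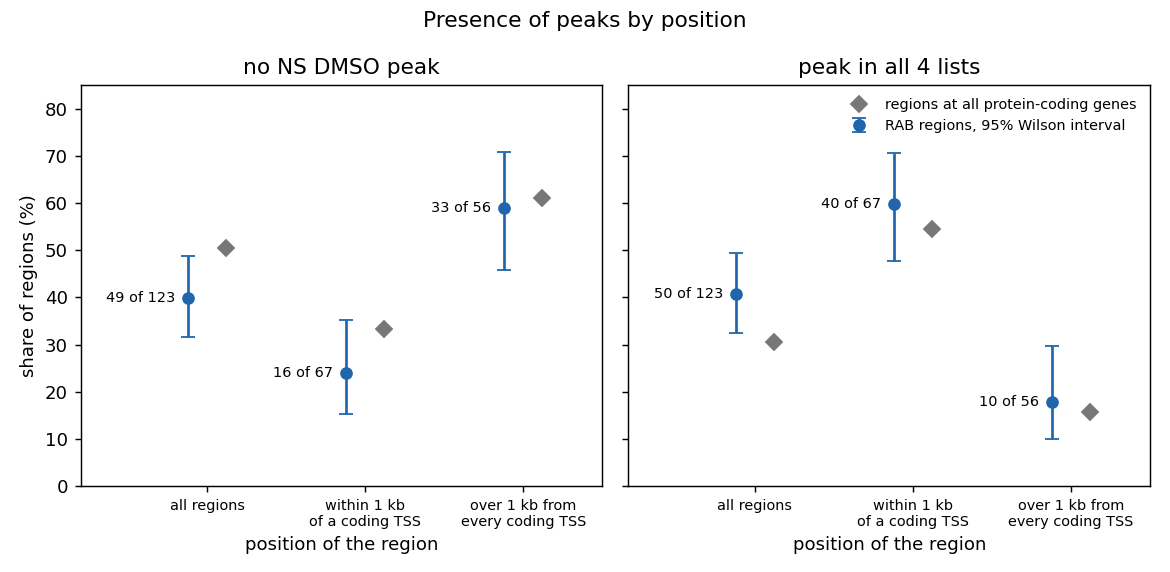
Share of regions, in percent, without an NS DMSO peak (left) and with a peak in all 4 lists (right), for all regions, those within 1 kb of a coding TSS and the others. Circles are RAB regions with 95% Wilson intervals, diamonds are regions at all protein-coding genes, and the diamonds lie outside the interval only for all regions.

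Regions away from start sites were weaker and less often shared. The highest enrichment of a region in any list had a median of 4.58 for the 48 regions at a RAB TSS, 4.61 for the 19 at another coding TSS only and 3.86 for the 56 away from coding TSSs. In these classes 8, 2 and 25 regions had a peak in 1 list. The median width was 452, 297 and 260 bp in that order. All 6 regions of the NS DMSO list alone were away from coding TSSs. No matching values at all genes were computed for these counts, medians and widths, so they are not read as particular to RAB genes. At all genes, too, a peak in all 4 lists was more frequent within 1 kb of a coding TSS (54.5%) than away from one (15.7%).

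The 9 RAB regions missing from NS DMSO and present in the 3 other lists fell at 6 genes, with 4 of them at RAB27A. The strongest lay 9.39 kb upstream of RAB5A (chr3:19978908-19979497), at 5.59 in SW DMSO, 6.11 in NS rottlerin and 6.52 in SW rottlerin, and the nearest NS DMSO peak, at the RAB5A TSS, lay 8.90 kb away. These values exceed those of the RAB5A promoter in the same lists. This is the region whose sequence holds 2 AP1 matches. In RAB8B, a region 42.7 kb into the gene had 3.38, 4.43 and 5.09, with the nearest NS DMSO peak 20.6 kb away. In RAB30, a Golgi member, an intronic region 69.7 kb from the canonical TSS had 3.71, 4.26 and 4.84, with the nearest NS DMSO peak 69.1 kb away. In RAB7A a region 68.7 kb into the gene, over an alternative start, had 2.76, 3.43 and 3.49. The RAB12 promoter, described above, completes the genes outside RAB27A. In 8 of the 9 regions (88.9%, 56.5–98.0) the SW rottlerin list had the highest value, against 52.6% of such regions at all genes. With each list divided by its median it was the highest in 6 of 9 (66.7%, 35.4–87.9), against 37.0%, a share inside the interval.

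RAB27A, with 8 regions, was with RAB8B the RAB gene with most regions. Of its 8 regions 4 had an NS DMSO peak and 4 had a peak in the 3 other lists but not in NS DMSO. Along the direction of transcription, the region 9.77 kb from the TSS had 3.86 in SW DMSO, 3.70 in NS rottlerin and 3.84 in SW rottlerin. The region at 22 kb had 3.22, 4.32 and 4.65. Those at 67.1 and 68.4 kb had 3.95, 3.93 and 4.20, and 3.35, 3.16 and 3.81. Both of the latter lie just beyond a region at 64.7 kb that was open in every list, at 4.59 in NS DMSO, 5.01 in SW DMSO, 4.94 in NS rottlerin and 4.97 in SW rottlerin. The nearest NS DMSO peak lay 2.40, 9.20, 2.17 and 3.39 kb from these 4 regions, so that 3 of them lie within 3.39 kb of an NS DMSO peak. Regions at 12.6 kb and 38.7 kb had an NS DMSO peak, of 3.26 and 3.90.

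RAB8B had 8 regions too, of which 3 had an NS DMSO peak. Its strongest lay 2.31 kb into the gene (chr15:63483643-63484585), at 5.54 in NS DMSO, 5.17 in SW DMSO, 6.53 in NS rottlerin and 6.73 in SW rottlerin. A region at 21.4 kb had 3.55, no peak, 4.12 and 4.09. The regions at 1.04, 4.46 and 14.3 kb had a peak in 1 list each, SW rottlerin (3.36), NS rottlerin (4.65) and SW DMSO (3.68), and that at 55.6 kb had 3.53 in NS rottlerin and 3.20 in SW rottlerin. RAB11A had 7 regions over a long annotated span, and RAB37, RAB27B and RAB43 had 5 each.

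**Figure D4:**
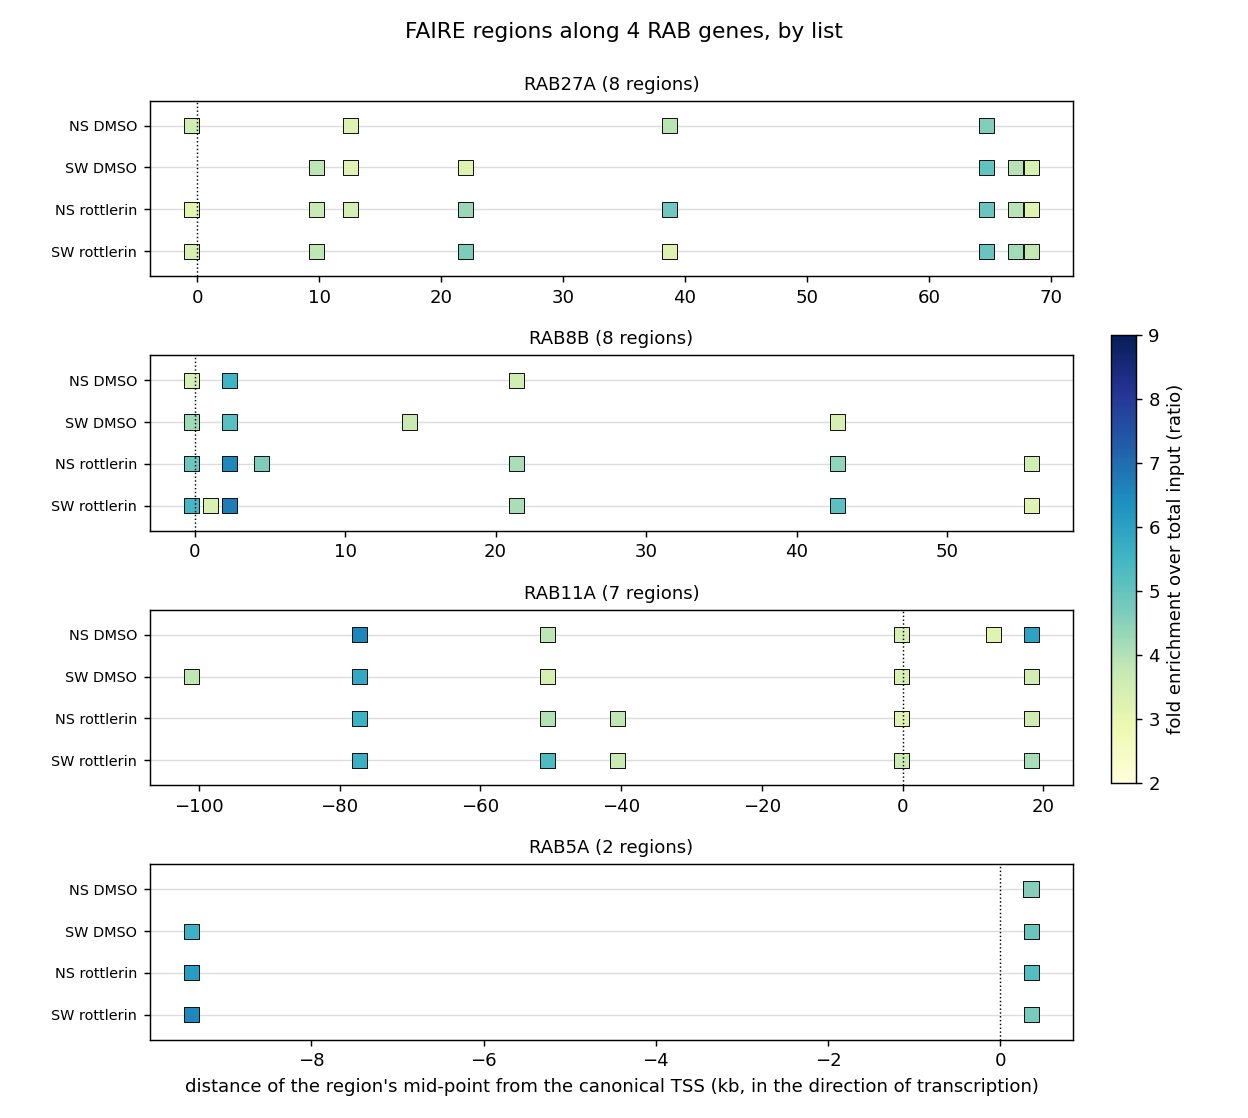
Regions along RAB27A, RAB8B, RAB11A and RAB5A. Each square is a list's highest peak in a region, placed by the distance in kb of the region's mid-point from the canonical TSS and coloured by fold enrichment over total input, and an empty place on a line is a list without a peak there. At RAB27A, 4 of 8 regions have no square in the NS DMSO line.

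In other regions without an NS DMSO peak, 1 or 2 lists carried it. The highest of these was in an intron of RAB28 (4.86 in NS rottlerin, 3.95 in SW rottlerin), followed by introns of RAB1A and RAB10 at 4.78 in NS rottlerin alone. A region near RAB26, at the PKD1 TSS, had 4.76 and 4.37 in NS rottlerin and SW rottlerin. In RAB5B a region at the SUOX TSS had 3.65 in SW DMSO and 4.58 in SW rottlerin. A region upstream of RAB36 had 4.29 in NS rottlerin alone, and the non-TSS region of RAB17 had 4.18 and 3.35 in the rottlerin-labelled lists.

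The 6 regions of the NS DMSO list alone were weak. They lay in RAB27B (3.57), RAB37 (3.50), RAB6A (3.38), RAB11A (3.18), RAB20 (3.01) and RAB3D (2.96), with the value of the NS DMSO peak in parentheses. The RAB37 region held an AP1 match, those of RAB27B and RAB6A an NFAT match each, and the other 3 regions none of the 3 motifs. For these regions, too, no share with any match was computed over all regions, so the matches are a description only.

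Where a region had a peak in both lists compared, enrichment rarely differed by 1.5-fold. Of 56 RAB regions shared by NS DMSO and SW DMSO, 1 was at least 1.5-fold higher in SW DMSO (1.79%, 0.316–9.45), against 1.49% of such regions at all genes, and 2 were at least 1.5-fold lower (3.57%, 0.985–12.1), against 1.81%. Of 61 shared with NS rottlerin, 1 was higher (1.64%, 0.290–8.72), against 2.83%, and 1 was lower, the same share, against 1.24%. Of 64 shared with SW rottlerin, 3 were higher (4.69%, 1.61–12.9), against 4.13%, and 2 were lower (3.12%, 0.861–10.7), against 1.31%. Each of these shares lay within its counting interval of the share at all genes.

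At least 1.5-fold higher than in NS DMSO were 5 regions, each in 1 other list. RAB7A had a region 78.3 kb into the gene at 3.17 in NS DMSO and 4.99 in SW DMSO, a ratio of 1.57. RAB43 near its TSS had 4.89 in NS DMSO and 7.71 in NS rottlerin, a ratio of 1.58. In SW rottlerin the RAB8B TSS had 5.46 against 3.47 (1.58), a RAB2A intron 6.32 against 4.07 (1.55), and a region 2.85 kb upstream of RAB22A 5.01 against 3.24 (1.55). Values at least 1.5-fold lower came from 3 regions. An exonic region of RAB11A (chr15:66179920-66180252), 18.3 kb into the gene, had 5.99 in NS DMSO, 3.51 in SW DMSO, 3.56 in NS rottlerin and 4.13 in SW rottlerin, with ratios of 0.586, 0.593 and 0.688. An intron of RAB40C had 4.32, 2.83, 3.10 and 2.84 in the same order, and a region in RAB5C had 4.63 in NS DMSO, 3.15 in SW DMSO, no peak in NS rottlerin and 2.48 in SW rottlerin, a ratio of 0.536. With each list divided by its median enrichment over regions in all 4 lists, 2 ratios instead of 5 were at least 1.5-fold higher and 6 instead of 5 lower. This scaling matters most for SW rottlerin, whose ratio to NS DMSO had a median of 1.08 at all genes.

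**Figure D5:**
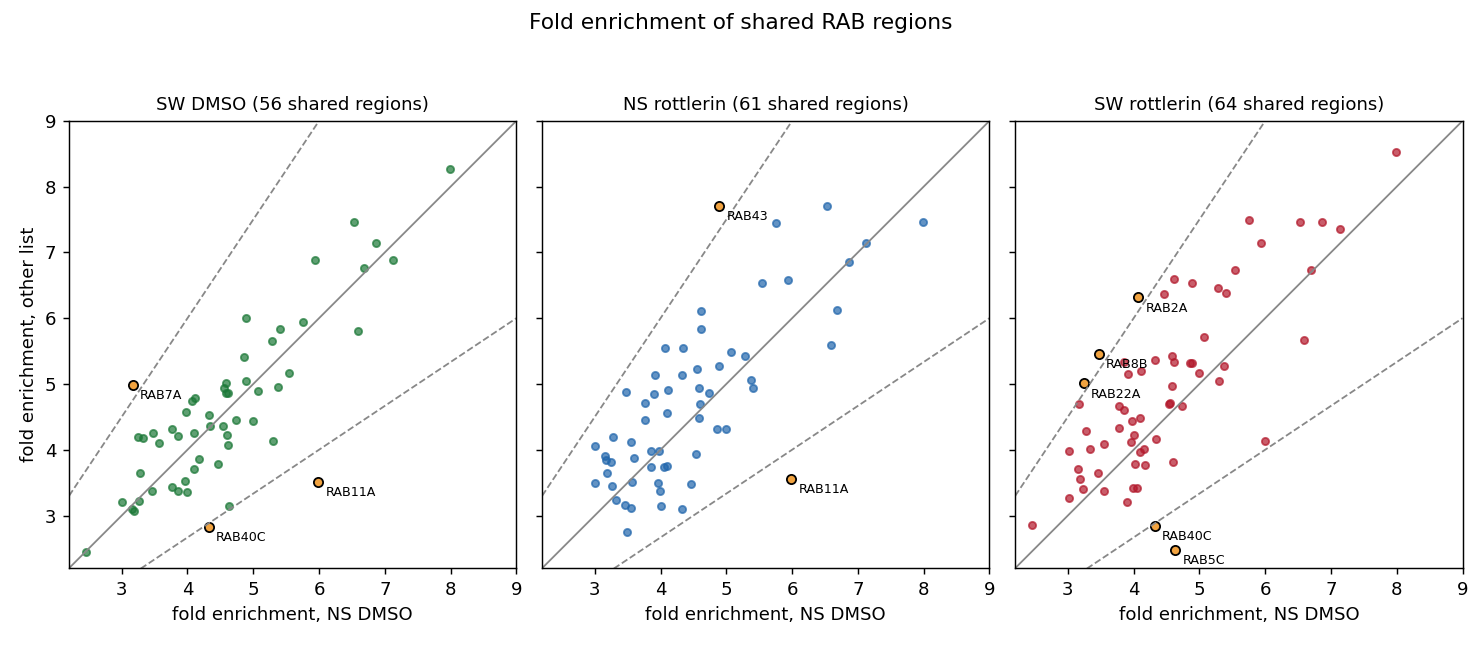
Fold enrichment over total input of RAB regions shared by the NS DMSO list (horizontal axis) and each other list (vertical axis), 56, 61 and 64 regions. The solid line is equality, dashed lines are 1.5-fold, and orange points with gene names lie beyond them.

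Over the 50 RAB regions with a peak in all 4 lists, the ratio to NS DMSO had a median of 1.03 in SW DMSO, from 0.586 to 1.57, against 0.986 at all genes. It was 1.05 in NS rottlerin, from 0.593 to 1.58, against 1.04, and 1.13 in SW rottlerin, from 0.659 to 1.58, against 1.08. Above 1 were 29 regions (58.0%), 31 (62.0%) and 41 (82.0%) in that order, against 46.4%, 59.9% and 67.8% at all genes. No interval was computed for these 3 shares, so whether they depart from those at all genes was not tested. In 20 of the 50 regions (40.0%, 27.6–53.8) all 3 other lists lay above NS DMSO, against 32.4% at all genes, and in 6 (12.0%, 5.62–23.8) all lay below, against 18.4%. With each list divided by its median these counts were 17 (34.0%, 22.4–47.8) and 13 (26%, 15.9–39.6), against 25.6% and 27.6%. All 4 intervals given here included the share at all genes. The 3 comparisons share the NS DMSO list, so they are not separate measurements.

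The 2 rottlerin-labelled lists were also set against the 2 DMSO-labelled ones. In 20 of the 50 regions (40.0%, 27.6–53.8) both rottlerin-labelled values lay above both DMSO-labelled values, against 33.3% of such regions at all genes. The reverse held in 1 region (2.00%, 0.354–10.5), against 8.29% at all genes. It was the region at the DENND4A TSS in the window of RAB11A, with 6.59 in NS DMSO, 5.81 in SW DMSO, 5.59 in NS rottlerin and 5.67 in SW rottlerin. Dividing each list by its median changed these counts to 12 (24.0%, 14.3–37.4) and 9 (18.0%, 9.77–30.8), against 17.5% and 20% (1843 of 9221) at all genes. All 4 shares at RAB genes had intervals that included the share at all genes.

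Several other regions were open in every list. The window of RAB26 held a region at the TRAF7 TSS with 6.53 in NS DMSO, 7.47 in SW DMSO, 7.70 in NS rottlerin and 7.46 in SW rottlerin. RAB37 had a region at the NHERF1 TSS with 4.62, 4.07, 5.83 and 6.60, highest in SW rottlerin. The RAB43 region 2.79 kb into the gene had 4.46, 3.79, 3.48 and 6.37, so that it lay below NS DMSO in SW DMSO and NS rottlerin and above it in SW rottlerin. A RAB11A region 50.4 kb upstream of the canonical TSS had 3.86, 3.37, 3.98 and 5.33, again highest in SW rottlerin. A RAB10 intron had 3.33, 4.18, 3.24 and 4.01, with the higher values in the SW-labelled lists. The RAB5B region at the CDK2 and PMEL TSSs was highest in NS DMSO, at 3.99, against 3.36, 3.38 and 3.42. RAB24 had a region at the MXD3 TSS with 4.60, 4.22, 4.70 and 3.82.

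Motifs were counted in the same central windows. AP1 is the transcription factor complex of FOS and JUN proteins that the antigen receptor activates, and NFAT is activated by calcium. The central 300 bp held an AP1 match in 12 of 123 RAB regions (9.76%, 5.67–16.3), against 15.9% at all genes, an ETS match in 13 (10.6%, 6.28–17.2), against 7.05%, and an NFAT match in 24 (19.5%, 13.5–27.4), against 26.4%. All 3 shares at all genes fell inside the RAB interval. Away from coding TSSs and without an NS DMSO peak, 5 of 33 RAB regions held an AP1 match (15.2%, 6.65–30.9), against 26.8%, and 5 an NFAT match (15.2%, 6.65–30.9), against 34.6%. Away from TSSs with an NS DMSO peak, AP1 matches stood in 1 of 23 (4.35%, 0.772–21.0), against 11.6%, and NFAT matches in 6 (26.1%, 12.5–46.5), against 25.8%. Near TSSs, 8.96% of RAB regions held AP1, 16.4% ETS and 19.4% NFAT, against 7.74%, 14.8% and 18.8%. Of 18 such comparisons, over 6 classes of region and the 3 motifs, 2 had the share at all genes outside the interval. They were NFAT in the class named above and ETS in the 49 RAB regions without an NS DMSO peak (5, or 10.2%, 4.44–21.8), against 3.99%. The median GC content was 64.3% near TSSs and 42.3% away from them, against 62.3% and 43.7%, and the ratio of observed to expected CpG was 0.799 and 0.219, against 0.773 and 0.208.

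Most partners of RAB proteins had a region at a TSS. Of 94 partner symbols listed, 93 matched a protein-coding gene of the annotation. Of these 93 genes, 73 (78.5%, 69.1–85.6) had a region at a TSS, against 53.1% of all protein-coding genes. In 46 (49.5%, 39.5–59.4) a TSS had a peak in all 4 lists, against 35.5%. Both intervals lay above the share at all genes. The GTPase activating proteins had the highest shares, with 21 of 23 (91.3%, 73.2–97.6) and 17 of 23 (73.9%, 53.5–87.5). Effectors had 27 of 34 with a TSS region (79.4%, 63.2–89.7) and 14 in every list (41.2%, 26.4–57.8). The exchange factors had 18 of 28 (64.3%, 45.8–79.3) and 11 (39.3%, 23.6–57.6), and the genes of prenylation and recycling of RAB proteins 7 of 8 (87.5%, 52.9–97.8) and 4. By region the partners lay nearer to all genes: their windows held 340 regions, of which 27.4% were in all 4 lists and 51.2% were not in NS DMSO, against 30.5% and 50.5%. TBC1D5, a GTPase activating protein for RAB7A, held 50 of the 340 regions.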

How the data were processed

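FAIRE-seq peak lists of 4 of the 9 Jurkat samples were used, each from 1 library. According to the methods and the submitters' processing notes, the authors used cutadapt for trimming, Bowtie2 for mapping to hg19, Picard to drop duplicate reads and MACS2 for peaks over total input. HTSeq is also named, and versions are not given in the sources used here. The deposited lists hold a score, the fold enrichment over input as a ratio, the −log10 p-value and the −log10 q-value. Peaks with a q-value up to 0.0983 were kept.

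Peaks that overlapped or touched were merged across lists, and regions off the autosomes, X and Y were then left out. A list took its highest fold enrichment in a region. Genes and TSSs came from GENCODE release 44 on GRCh37. Steps were tested on simulated data. Python 3.11.15, numpy 2.4.6, scipy 1.17.1, pysam 0.24.0 and matplotlib 3.10.9 were used. The genes, role groups, partners, markers and motifs were chosen with earlier results of these data known. 1 gene of the T cell marker list is not reported here. Named are the regions in all 3 other lists without NS DMSO, those in NS DMSO alone, the 10 strongest in all 4 lists and in 1 or 2 other lists, the 5 most extreme ratios each way, genes without a region, the 5 genes with most regions (6 with ties), and a set of genes of T cell traffic. Other windows, overlaps, folds, scalings and peak numbers were tried.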

Additional observations from a re-analysis of the deposited data

Results flagged for a closer look

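The number of RAB regions differed between the lists labelled SW and NS in opposite directions under the 2 pre-treatment labels. SW minus NS was -3 regions in the DMSO-labelled lists (71 against 74) and 4 in the rottlerin-labelled lists (96 against 92). For RAB genes with a TSS peak, SW minus NS was -3 in the DMSO-labelled lists (31 against 34) and 5 in the rottlerin-labelled lists (40 against 35). Neither difference was tested, since each group has 1 library. The list labelled SW rottlerin holds 30409 peaks against 23835 in NS rottlerin. With 18977 peaks in every list, SW minus NS was -8 and -9 regions. The labels of these lists are in doubt.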

How the results depend on the processing

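Of 142 values for 14 results under 15 alternatives, 122 stayed within the spread set for them and 20 moved. A turn of direction was defined only for the median ratios, and none of these turned. The share of RAB regions without an NS DMSO peak, 39.8%, was 30.2% with equal peak numbers and 50.4% when a list had to cover 50% of a region. The share in all 4 lists was then 29.3%. The share in NS DMSO alone was 1.02% within 10 kb of a TSS only. The higher-scoring 50% of each list left 72 of 123 regions. Of the 5 ratios at least 1.5-fold higher, 1 was left with the higher-scoring 50%, 2 after scaling and 0 at 2-fold, and 18 passed at 1.3-fold. Of the 5 lower, 1 was left with equal peak numbers, 0 with the higher-scoring 50%, 2 with 50% coverage, 1 within 10 kb of a TSS and 0 at 2-fold, and 8 passed at 1.3-fold. Without RAB11A, an alternative chosen after seeing the data like those on canonical TSSs and on other genes' TSSs, 3 lower ratios were left. The median SW rottlerin ratio of 1.13 was 1.05 after scaling. Fewer peaks or a higher fold leave fewer calls by construction, and the cause of the other changes was not tested. Depth is unknown, so absence of a peak is not absence of accessibility. No paired analysis was possible because each group has 1 library and no test was made.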

Other observations

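Among the partners of RAB proteins, the genes with most regions after TBC1D5 were DENND1A, an exchange factor for RAB35, with 16 regions, TBC1D4, a GTPase activating protein in glucose transporter traffic, with 12, and RIN3, an exchange factor for RAB5, with 11. Of these regions 8 in each of the 3 genes had no NS DMSO peak, where the share over regions at all protein-coding genes was 50.5%. TBC1D22A held 3 regions with a peak in the 3 other lists and none in NS DMSO, of 8 in all. The 340 partner regions included 28 of that kind (8.24%, 95% interval 5.76–11.6), against 6.87% at all genes, and 31 found in NS DMSO alone (9.12%, 6.50–12.7), against 7.21%.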
